A study of Mus musculus with 10 samples.

Results

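Gm5662, Gm2016, Gm8300 and BB287469 are 4 mouse genes with near-identical coding sequences. These sequences resemble that of Eif1a, the gene for eukaryotic translation initiation factor 1A (eIF1A). The genes were taken by name from a set of 24411 genes listed for every library. The 4 were chosen by their measured level in these same libraries, as copies far higher in one group of the study than in the other, so their difference between the groups is given below as a description, with no test. Because the copies share sequence, their sum in each library stands beside the single copies.

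The study compared pools of mouse embryos at the morula stage, grown in KSOM medium to 72 hpi (the labels' time unit). Zygotes from superovulated oocytes fertilised in vitro were injected with an antisense oligonucleotide against Mettl3 (Mettl3-ASO, 5 libraries) or with a non-targeting oligonucleotide (ASO-Control, 5 libraries), and each library was made from 10 embryos. The METTL3 protein is the methyltransferase that deposits N6-methyladenosine in messenger RNA. Polyadenylated RNA was amplified with the SMART-Seq v4 PLUS kit. Replicates 1 and 2 of each group carry no batch label and are labelled as ICR, an outbred strain, whereas replicates 3, 4 and 5 are labelled batch 2 and carry no strain label. Both groups therefore shared in vitro fertilisation, injection and culture, and no uninjected embryos were analysed here. The labels do not say whether replicates came from separate fertilisations, so the tests below measure the spread between these pools.

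eIF1A binds the small ribosomal subunit near its A site, works with eIF1 during scanning, and later contacts eIF5B when the subunits join. In the mouse the canonical genes are the X-linked Eif1ax and the autosomal Eif1a. Eif1a-like genes are part of the set of genes known to be transcribed briefly at zygotic genome activation, in the 2-cell embryo, together with the Zscan4 and Tcstv genes, and they are normally low by the morula.

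The 4 genes lie on chromosome 12 in GRCm38 (mm10). Gm8300 is at chr12:87514316-87518266 on the plus strand, BB287469 at chr12:87816577-87820676 on the plus strand, Gm2016 at chr12:87874072-87877859 on the plus strand and Gm5662 at chr12:88270640-88274500 on the minus strand. In the GENCODE M21 annotation each has 2 exons, and its whole coding sequence of 144 codons lies in exon 2. A search of the annotated transcripts for shared 20-base words found 20 Eif1a-like genes on this chromosome, 16 annotated as protein-coding and 4 as pseudogenes, within 835 kb. Of these, 8 were listed in the deposited tables: the 4 named above and Gm2022, Gm4027, Gm21319 and Gm5039.

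The coding sequences of the 4 genes were equal at 416 of 432 bases (96.3%). Identity between pairs ran from 97.2% (Gm8300 and BB287469) to 99.1% (Gm5662 and Gm2016). Against Eif1ax it was 83.6% to 85.0%, and against Eif1a 93.8% to 95.1%. The stretch below, coding bases 231 to 290, is shown because it holds 6 of the 16 positions at which the 4 copies differ, and such positions are what lets a read be assigned to 1 copy. Capitals in the 4 copies mark those 6 positions. Capitals in Eif1ax mark bases at which it differs from all 4. The sequences are from GENCODE M21 transcripts, 5′ to 3′ on the coding strand, and the Eif1ax stretch spans an intron. Locations are chr12:88271699-88271758 (minus) for Gm5662, chr12:87876815-87876874 (plus) for Gm2016, chr12:87517127-87517186 (plus) for Gm8300, chr12:87819551-87819610 (plus) for BB287469 and chrX:159378565-159379764 (plus) for Eif1ax.
Gm5662: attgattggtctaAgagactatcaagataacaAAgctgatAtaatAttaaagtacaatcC
Gm2016: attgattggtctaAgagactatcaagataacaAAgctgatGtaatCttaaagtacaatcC
Gm8300: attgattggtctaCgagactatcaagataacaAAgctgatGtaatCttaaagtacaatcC
BB287469: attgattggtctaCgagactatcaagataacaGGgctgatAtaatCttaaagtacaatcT
Eif1ax: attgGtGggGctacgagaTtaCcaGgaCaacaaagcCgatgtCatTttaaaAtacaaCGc
In this stretch Gm5662 differed from Gm2016 at 2 bases, from Gm8300 at 3, from BB287469 at 5 and from Eif1ax at 15. After translation the 4 copies differed among themselves at 9 of 144 residues, shared 128 with Eif1ax, and had in common 7 at which Eif1ax has another residue.

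How far a single copy can be measured followed from this likeness. Among all 50-base windows of its transcript, 96.6% of those of BB287469, 81.3% of those of Gm2016 and 77.9% of those of Gm5662 also occurred in another gene, against 26.6% for Gm8300. For BB287469 the other gene was mostly Gm4027 (94.3% of its windows), whose coding sequence differed from it at 0 of 432 bases. These windows come from GENCODE M21 models. The deposited tables give other transcript lengths for Gm4027 (998 bases, against 1850 in GENCODE) and Gm2022 (1822 against 435), so the shares do not measure the overlap in the authors' own counting. No 50-base window of the 4 genes occurred in Eif1ax, and 1.95% to 3.61% occurred in Eif1a. The estimated counts showed the same sharing: they were whole numbers (within 0.005) in 10 of 10 libraries for Eif1a and Eif1ax, in 2 of 10 for Gm8300 and in 0 of 10 for Gm5662, Gm2016 and BB287469. Values of single copies, of BB287469 above all, therefore rest on how the authors' counting divided shared reads, and the sum does so where reads are shared with copies outside the 4. In the GENCODE models 14.9% of the windows of Gm5662, 17.8% of those of Gm2016, 16.7% of those of Gm8300 and 94.3% of those of BB287469 occurred in 1 or more of the other measured copies. Copies that the deposited tables do not list share sequence too. Gm8332, for example, had 413 20-base words in common with the coding sequences of the 4, as many as each of the 4 itself. Whether reads from such copies were counted under the listed ones was not tested.

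The promoter of 1 of the 4 genes, BB287469, was in the RefSeq table used here (GRCm38.p6). It is shown because the gene differed between the groups, and it runs from 250 bases before the annotated start to 50 after it, at chr12:87816327-87816626 on the plus strand. Capitals mark 2 overlapping copies of TATATA, the first 30 bases before the start, and 1 stretch at 129 bases before the start that is 1 mismatch from the motif bound by Dux, a transcription factor of the 2-cell embryo.
BB287469 promoter: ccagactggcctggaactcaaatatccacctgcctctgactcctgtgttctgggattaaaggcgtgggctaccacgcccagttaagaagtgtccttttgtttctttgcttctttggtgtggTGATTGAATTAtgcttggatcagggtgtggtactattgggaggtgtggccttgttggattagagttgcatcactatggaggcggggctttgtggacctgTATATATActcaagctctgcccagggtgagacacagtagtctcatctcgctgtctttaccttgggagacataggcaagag
On either strand, TATATA occurred in 5.67% of the 32851 promoters of this length, the exact Dux motif in 0.0335%, and that motif with at most 1 mismatch in 0.734%. The promoters of Gm4027 and Gm21319 each held 1 copy with 1 mismatch as well and none exact. These matches describe the letters only.

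Library totals ran from 9905830 to 13530284 counts in the 4 libraries with no batch label and from 21412857 to 32327283 in the 6 of batch 2. The estimated count of Mettl3 was 244, 272, 336, 446 and 383 in ASO-Control replicates 1 to 5 and 0, 0, 0, 2 and 1 in Mettl3-ASO replicates 1 to 5. Of 11 markers of the preimplantation embryo, 10 had a mean of at least 1 FPKM (fragments per kilobase of transcript, scaled to the size of the library) in both groups. The 9 cumulus and granulosa cell markers summed to at most 0.06 FPKM in ASO-Control and 0.6 in Mettl3-ASO, with 6 and 7 of them at 0 in all libraries. The 5 sperm markers summed to at most 2.22 and 2.82 FPKM. The 9 oocyte and zygote markers summed to 3.49 to 7.08 FPKM in ASO-Control and to 14.1 to 26.2 in Mettl3-ASO, with 5 of 9 at a mean of at least 1 in the second group against 1 in the first, and none at 0 in all libraries of a group. These markers moved with the copies described below, and their part in that difference was not tested.

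Summed over the 4 genes, the Eif1a-like copies stood at a few FPKM in control morulae and would rank between places 28 and 263 among all genes in Mettl3-ASO morulae. In ASO-Control replicates 1 to 5 the sum was 2.68, 11.4, 6.55, 7.70 and 10.8 FPKM. In Mettl3-ASO replicates 1 to 5 it was 706, 2546, 1688, 3753 and 3342 FPKM. The groups did not overlap, and replicate 1 was the lowest library of both. The means were 7.82 ± 3.52 and 2407 ± 1236 FPKM (SD, n = 5 each), a ratio of 308, or 8.27 on the log2 scale. The lowest Mettl3-ASO library was 62-fold above the highest control. Each library is a bulk pool, so more cells that carry these transcripts and more transcript per cell cannot be told apart.

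Gm5662 had the highest mean of the 4. Its level was 1.78, 3.79, 3.15, 4.10 and 4.49 FPKM in ASO-Control replicates 1 to 5, and 357, 1131, 800.1, 1614 and 1509 FPKM in Mettl3-ASO replicates 1 to 5. Every Mettl3-ASO library was above every control, the smallest gap being 79.4-fold. The means were 3.46 ± 1.06 and 1082 ± 518 FPKM (SD, n = 5 each), and the fit to the counts gave a log2 fold of 8.24 ± 0.43 (SE). In a ranking of all genes by FPKM it stood between places 5593 and 8391 in the controls and between 114 and 476 in Mettl3-ASO.

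Gm2016, the copy closest to Gm5662 in coding sequence, followed it. Its level was 0.43, 3.82, 2.07, 2.64 and 3.51 FPKM in ASO-Control and 167, 1049, 687, 1698 and 1385 FPKM in Mettl3-ASO, in replicate order. Again no library of one group fell in the range of the other. The means were 2.49 ± 1.35 and 997 ± 598 FPKM (SD, n = 5 each), with a fitted log2 fold of 8.58 ± 0.67 (SE).

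Gm8300, the copy with most sequence of its own, was lower in both groups. It measured 0.38, 1.84, 0.32, 0.57 and 1.10 FPKM in ASO-Control and 59.7, 209.6, 143, 325 and 344 FPKM in Mettl3-ASO. Its means were 0.842 ± 0.637 and 216 ± 120.5 FPKM (SD, n = 5 each), with a fitted log2 fold of 8.03 ± 0.62 (SE). In the GENCODE models 73.4% of its 50-base windows occurred in no other gene, the highest share among the 4. Its log2 fold was 6.95 in the libraries with no batch label alone and 6.70 with limma on log2(FPKM + 1).

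BB287469 departed from the other copies in its order over libraries. It measured 0.09, 1.94, 1.01, 0.39 and 1.68 FPKM in ASO-Control and 123, 157, 57.5, 115 and 104 FPKM in Mettl3-ASO. Replicate 1, the lowest Mettl3-ASO library for the other copies, was the second highest here. The means were 1.02 ± 0.80 and 111.5 ± 36.1 FPKM (SD, n = 5 each), with a fitted log2 fold of 6.65 ± 0.53 (SE).

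**Figure D1:**
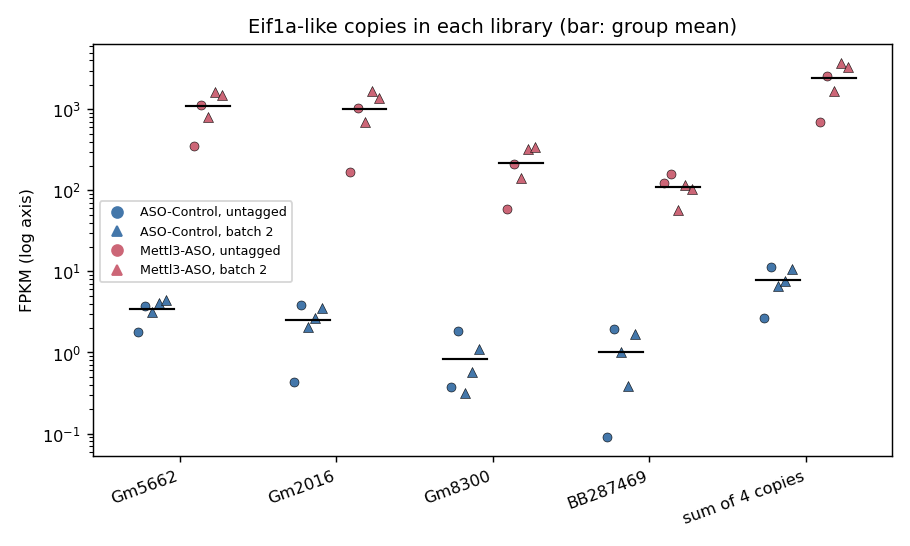
FPKM of each of the 4 Eif1a-like copies and of their sum in each library, on a log axis, with ASO-Control in blue, Mettl3-ASO in red, circles for libraries with no batch label, triangles for batch 2, and a bar for the group mean. For every copy the 5 Mettl3-ASO points lie above the 5 control points, and the sum runs from 2.68 to 11.4 FPKM in the controls and from 706 to 3753 in Mettl3-ASO.

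All 4 genes passed the filter of a mean of at least 1 FPKM over the 10 libraries, and 3 of them had a control mean of at least 1. Across the 9522 genes tested with edgeR's quasi-likelihood test, 49.4% were called at a Benjamini-Hochberg adjusted p under 0.05, of which 2418 rose (25.4% of those tested) and 2286 fell (24% of those tested). The ranges of the groups did not overlap for 25.6% of genes in either direction, and for 15% with Mettl3-ASO higher. The 4 copies were named for their difference in this contrast, so nothing is read from their being above these shares.

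As a share of all counts, the sum went from 0.000431% (95% Wilson interval 0.000331% to 0.000561%) in the lowest control library to 0.00185% (0.00162% to 0.00211%) in the highest. In Mettl3-ASO it ran from 0.114% (0.112% to 0.116%) to 0.595% (0.592% to 0.598%). The intervals cover counting error only, and the spread between libraries of a group was many times wider. With 55 summed counts in the lowest control and 555 in the highest, the single copies in the controls rest on few reads: Gm8300 on 8 to 58.6 estimated counts and BB287469 on 1.94 to 88.2.

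Within the Mettl3-ASO libraries the makeup of the sum varied less for Gm5662 and Gm8300 than for Gm2016 and BB287469. Gm5662 held 43.9% to 50.9% of the summed count in Mettl3-ASO and 33.6% to 66.5% in the controls. Gm8300 held 8.53% to 10.7% and 5.07% to 16.7%. Gm2016 held 22.7% in Mettl3-ASO replicate 1 and 39.5% to 44.0% in replicates 2 to 5. BB287469 was the reverse, with 17.7% in replicate 1 and 3.15% to 6.32% in the other four. Mean shares were 46.8% ± 2.8 for Gm5662, 37.3% ± 8.3 for Gm2016, 9.14% ± 0.88 for Gm8300 and 6.77% ± 6.24 for BB287469 (SD, n = 5).

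**Figure D2:**
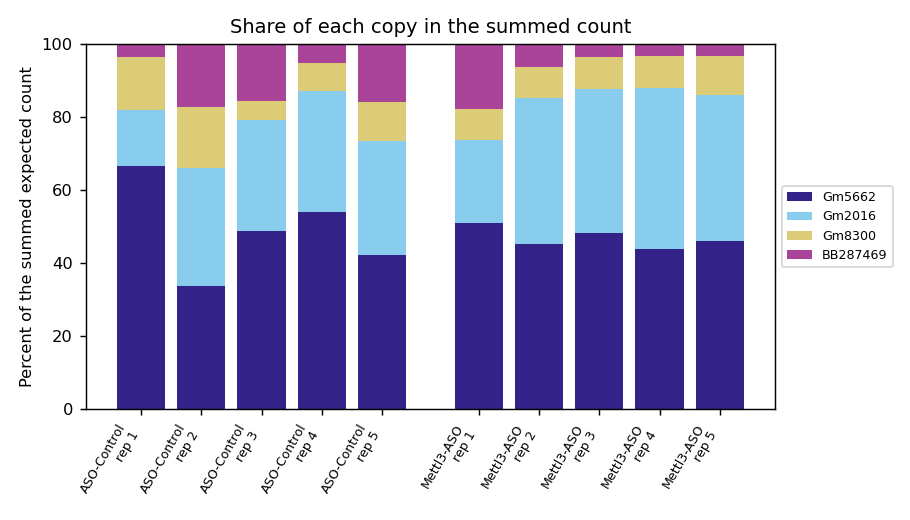
Percent of the summed expected count of the 4 copies that each copy holds, by library. Gm5662 and Gm2016 make up most of every bar, and Mettl3-ASO replicate 1 stands apart from the other four Mettl3-ASO bars with 22.7% for Gm2016 and 17.7% for BB287469.

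The order of the copies by FPKM was compared within the Mettl3-ASO libraries. Gm5662 was above Gm2016 in 4 of 5 libraries, with a geometric mean ratio of 1.23 (exact paired sign-flip permutation test, two-sided p = 0.125). Gm2016 was above Gm8300 in 5 of 5, with a ratio of 4.26 (exact permutation p = 0.0625, the smallest that 5 pairs allow). Gm8300 was above BB287469 in 4 of 5, with a ratio of 1.72 and a range of 0.485 to 3.31 (exact permutation p = 0.1875). After Benjamini-Hochberg adjustment over the 3 comparisons each was 0.1875. With 5 libraries this test cannot reach p under 0.05, and the order was set by the same libraries. It therefore cannot decide whether neighbours in this order differ. As a description, Gm2016 was 2.79 to 5.22 times Gm8300.

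Gm5662, Gm2016 and Gm8300 varied together over libraries once the mean of each group and batch was taken out. Over the 10 libraries, r of log2(FPKM + 1) was 0.98 for Gm5662 with Gm2016, 0.99 for Gm5662 with Gm8300 and 0.97 for Gm2016 with Gm8300. BB287469 was further off, with 0.66 to 0.74 against these genes and 0.93 against Gm4027, with which it shares nearly all its sequence. These are descriptions: the pairs share libraries and reads.

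The difference was present both with and without the batch 2 label. In the libraries with no batch label the mean sum was 7.04 FPKM in ASO-Control (n = 2) and 1626 in Mettl3-ASO (n = 2), a log2 ratio of 7.85. In batch 2 it was 8.34 (n = 3) and 2928 (n = 3), a log2 ratio of 8.46. The interaction of group and batch, which the choice of genes did not use, was 0.53 ± 0.86 (SE) on the log2 scale (edgeR adjusted p = 0.9999). Its 95% interval from a normal distribution was -1.16 to 2.21, narrower than the test's own distribution would give. For the single copies the interaction ran from -0.66 for BB287469 to 1.63 for Gm8300, each with an edgeR adjusted p of 0.9999. Of 9519 features fitted, edgeR called 0 for this interaction (0%), with 159 at an unadjusted p under 0.05, and DESeq2 called 1. On simulated counts with the same spread for every gene, the interaction test found 86% of 4-fold changes and 12% of 2-fold changes. The sum spread more between libraries than those counts (pooled within-group SD 0.91 on the log2 scale), so these shares do not hold for it. Its 95% interval, up to 2.21, takes in 2-fold and 4-fold differences between the batches, so either could have gone unseen.

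The other 4 copies of the cluster in the deposited tables were lower in total. Their sum was 2.91 ± 2.84 FPKM in ASO-Control and 537 ± 321 in Mettl3-ASO (SD, n = 5 each), and all 8 copies together gave 10.7 ± 6.1 and 2944 ± 1442. Gm4027 had the highest mean of these, at 1.75 FPKM in ASO-Control and 321 in Mettl3-ASO, followed by Gm2022 at 0.716 and 149, Gm5039 at 0.404 and 64.9 and Gm21319 at 0.04 and 2.68. The deposited table gives Gm4027 a transcript of 998 bases where Gm5662 has 1842, and its FPKM is higher for the same count on that account. For each of the 4 the ranges of the groups did not overlap. Gm21312 was listed at 0 in all 10 libraries.

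Relative to Gm5662, some copies of the cluster differed between Mettl3-ASO libraries along with another family of the 2-cell stage, and others did not. The Zscan4 genes, which encode zinc finger proteins of the 2-cell embryo, summed to 331, 227, 1.98, 402 and 1.22 FPKM in Mettl3-ASO replicates 1 to 5 and to at most 2.71 FPKM in the controls. Replicates 3 and 5 thus lay within the control range for Zscan4, while their Eif1a-like sums were 1688 and 3342 FPKM. Relative to Gm5662 in the same library, Gm4027 stood at 84.5%, 31.9%, 12.8%, 37.7% and 15.3% in replicates 1 to 5, and Gm2022 at 16.6%, 16.8%, 7.42%, 18.7% and 8.90%. Gm5039 gave 30.5%, 7.57%, 0.547%, 6.87% and 0.973%. For each of these copies the values of replicates 3 and 5, the libraries with little Zscan4, were the lowest 2 of the 5. Gm21319 had its lowest 2 there as well, at 0.15% and 0.0709%. Gm8300 showed no such order, with 16.7%, 18.5%, 17.9%, 20.2% and 22.8%, and BB287469 was high in replicate 1 (34.5%) and 6.90% to 13.9% in the rest. Gm2016 was lowest in replicate 1 (46.7%), a library with much Zscan4, and at 86% to 105% in the rest. Gm16381, a gene inside the cluster that is not an Eif1a copy, went the other way. It stood at 105%, 113%, 238%, 112% and 142% of Gm5662, highest in replicates 3 and 5. With 5 libraries no correlation is given, and the order in replicates 3 and 5 was noticed after the values were seen.

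**Figure D3:**
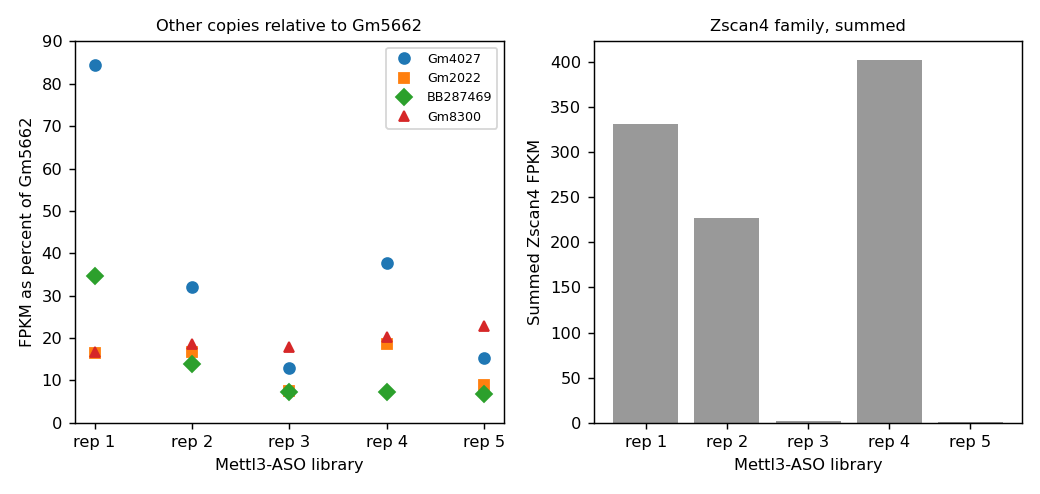
Left, FPKM of Gm4027, Gm2022, BB287469 and Gm8300 as a percent of Gm5662 in each Mettl3-ASO library, with Gm2016, Gm5039 and Gm21319 not drawn. Right, the summed FPKM of the Zscan4 genes in the same libraries as bars; Gm4027 and Gm2022 are lowest relative to Gm5662 in replicates 3 and 5, where the Zscan4 sum is 1.98 and 1.22 FPKM.

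Other 2-cell genes had been picked with their difference in these data known, and most passed the filter through the Mettl3-ASO group alone, so they are not counted or tested. Tcstv1 and Tcstv3, for example, were at means of 1.67 and 3.47 FPKM in ASO-Control and 106 and 708 in Mettl3-ASO. Among 20 tested genes known to regulate the 2-cell program, 7 rose and 4 fell (55% called, against 49.4% of all genes). Obox3 and Obox5 among the 7 passed the filter through Mettl3-ASO alone, so the 55% is not read as an excess. Dux, whose product activates many of these genes, was at 2.78 FPKM (68 counts) in Mettl3-ASO replicate 1 and at most 0.3 FPKM in the other nine libraries, among them replicates 2 and 5 of Mettl3-ASO with 0 counts and Eif1a-like sums of 2546 and 3342 FPKM.

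Neither of the canonical eIF1A genes, Eif1a and Eif1ax, was called as higher, nor were Eif1ad, Eif1 and Eif1b. Eif1a was at 222 ± 18 FPKM in ASO-Control and 209 ± 29 in Mettl3-ASO (SD, n = 5 each), with overlapping groups and a log2 fold of -0.13 ± 0.11 (SE, edgeR adjusted p = 0.344). Eif1ax, which encodes the ubiquitous form, ran from 609 to 784 FPKM in ASO-Control and from 461 to 534 in Mettl3-ASO. It fell by 0.46 ± 0.10 on the log2 scale (edgeR adjusted p = 0.00236), with groups that did not overlap. Eif1ad, Eif1 and Eif1b, which encode an eIF1A domain protein and 2 forms of eIF1, overlapped between the groups and were not called, with log2 folds of -0.04, 0.10 and -0.10 (edgeR adjusted p = 0.82, 0.604 and 0.508).

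Set beside Eif1a and Eif1ax per length of transcript, the sum of the 4 copies was above both in each Mettl3-ASO library. By this measure it was above Eif1 only in replicates 4 and 5, and close to it in replicate 2 (2546 against 2562 FPKM). The sum was 0.0132 to 0.0538 times Eif1a in the controls and 4.36 to 16.8 times in Mettl3-ASO. Against Eif1ax it was 0.0038 to 0.0175 times and 1.32 to 7.36 times. Of the FPKM of Eif1a, Eif1ax and the 4 copies together, the copies made up 0.294% to 1.31% in ASO-Control and 50.3%, 79.3%, 69.2%, 83.7% and 81.8% in Mettl3-ASO replicates 1 to 5. These ratios and shares rest on the deposited transcript lengths, where Eif1ax has 926 bases against 5172 in GENCODE. By expected count, which leaves length out, the sum was still above Eif1a and Eif1ax in each Mettl3-ASO library. In replicate 1 it was 15405 against 5137 for Eif1ax. By count the sum was above Eif1 in replicate 2 as well (40639 against 25597), but not in replicates 1 and 3. Eif1a and Eif1ax together were 902 ± 72 FPKM in ASO-Control and 718 ± 36 in Mettl3-ASO (SD, n = 5 each), so the fall of Eif1ax was small beside the 2407 FPKM of the copies. These are levels of RNA, and no protein was measured.

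**Figure D4:**
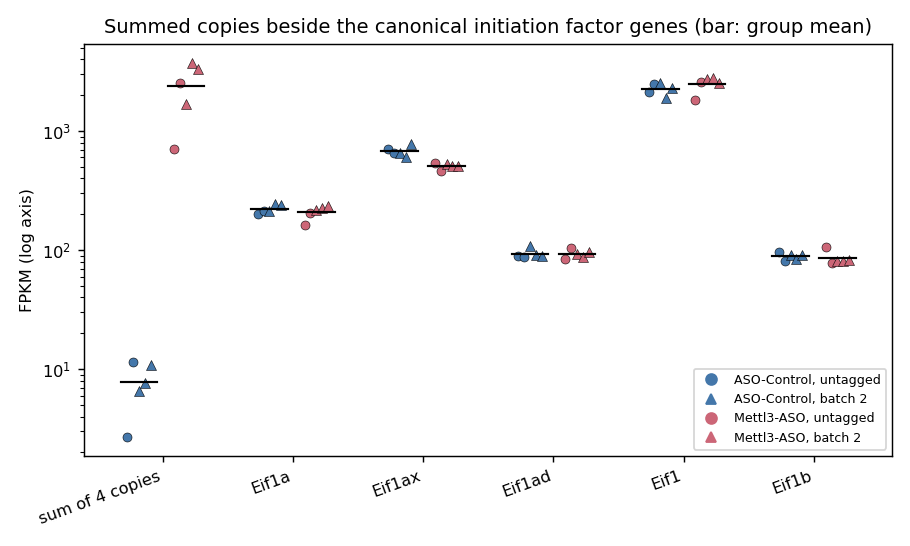
FPKM of the summed 4 copies, Eif1a, Eif1ax, Eif1ad, Eif1 and Eif1b in each library on a log axis, with colours, shapes and bars as in the plot of the single copies. The sum goes from below every gene shown in the controls to above Eif1a and Eif1ax in each Mettl3-ASO library, while Eif1a, Eif1ad, Eif1 and Eif1b overlap between the groups.

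The other genes of the initiation machinery were counted in the same fit. Of 34 genes of the preinitiation complex and its recycling, all tested, 2 rose and 12 fell (41.2% called, against 49.4% over all genes), with a median log2 fold of -0.17 against 0.01. Among the 12 was the Y-linked Eif2s3y, at 40.4 ± 22.8 FPKM in ASO-Control and 16.4 ± 3.6 in Mettl3-ASO (SD, n = 5 each). Its X-linked partner Eif2s3x was not called (-0.08), and the share of male embryos in each pool was not tested. Eif5b, whose product binds the tail of eIF1A when the subunits join, rose by 0.73 ± 0.09 (SE, edgeR adjusted p = 3.8e-05). Eif5, the GTPase-activating protein of eIF2, fell by 1.35 ± 0.17 (adjusted p = 4.41e-05). Eif2d fell by 1.28 ± 0.17 (adjusted p = 6.96e-05) and the eIF3 subunit gene Eif3e by 0.85 ± 0.12 (adjusted p = 9.76e-05). Eif3j1, 1 of the 2 that rose, was called as higher by 5.10 ± 1.95 (adjusted p = 0.0452). However, it passed the filter through Mettl3-ASO alone, with means of 0.022 FPKM in ASO-Control and 3.70 ± 8.26 in Mettl3-ASO (SD, n = 5). Its log2 fold was -0.94 without Mettl3-ASO replicate 1 (adjusted p = 0.609). Leaving out any of ASO-Control replicates 1, 2 and 3 or Mettl3-ASO replicate 5 also ended its call (adjusted p = 0.0513 to 0.24), as did the replicate block (4.25, adjusted p = 0.0707). Eif2b1, the next by p among positive folds, was at 0.22 ± 0.14 (adjusted p = 0.217).

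Of 16 genes of the cap-binding complex, which brings the messenger RNA to the small subunit, 14 were tested, 2 rose and 5 fell (50% called), with a median log2 fold of -0.26. Eif4a2, a helicase gene, rose by 1.25 ± 0.12 (SE, edgeR adjusted p = 9.1e-06). Eif4e, the cap-binding protein gene, rose by 0.84 ± 0.17 (adjusted p = 0.00148). Eif4g3, counted among the 5 that fell, was at 2.20 ± 0.62 FPKM in ASO-Control and 0.226 ± 0.078 in Mettl3-ASO (SD, n = 5 each). It passed the filter through the control group alone, and its log2 fold was -3.37 in the counts and -1.37 with limma on log2(FPKM + 1). Eif4ebp1, whose product holds eIF4E inactive, fell by 0.73 ± 0.20 (adjusted p = 0.00795). Eif4g2 fell by 0.41 ± 0.13 (adjusted p = 0.0224), and that call was lost without ASO-Control replicate 5 (adjusted p = 0.0724) or Mettl3-ASO replicate 3 (adjusted p = 0.0581). Eif4h was at 0.30 ± 0.16 (adjusted p = 0.136), and at 0.41 without Mettl3-ASO replicate 2 (adjusted p = 0.0419). Both lists thus held changes in both directions.

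The neighbourhood of the copies was then described by position. Within the cluster and 200 kb to either side, 13 genes that are not Eif1a copies were listed in the tables, 6 inside the cluster and 7 beside it. They were picked after their values were seen. Gm1995, Gm7104 and Gm2042 passed the filter on low values through the Mettl3-ASO group alone, so the genes inside the cluster are described with no test.

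Gm16381, at chr12:87644118-87644620 on the minus strand between Gm8300 and BB287469, had a mean of 1502 FPKM in Mettl3-ASO, the highest of the neighbours inside the cluster. It was at 0.51, 6.98, 4.16, 4.32 and 7.81 FPKM in ASO-Control and 374, 1282, 1903, 1809 and 2144 FPKM in Mettl3-ASO. The groups did not overlap, and the fitted log2 fold was 8.24 ± 0.54 (SE). Of the 484 20-base words of its transcript, 0 occurred in an Eif1a-like copy, and its counts were whole numbers in 10 of 10 libraries. Gm1995, inside the cluster next to Gm2016, was at 0 to 0.13 FPKM in ASO-Control and 60.6 to 99.5 in Mettl3-ASO. Gm7104, next to Gm5662, was at 0 to 0.04 and 5.63 to 12.7. Both had words in common with no Eif1a-like copy either, although few of their own counts were whole (3 of 10 libraries each).

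Gm2042, further along, was at 0.396 FPKM in ASO-Control and 1.78 in Mettl3-ASO on average, with overlapping groups. Oog1 and Gm10436 were under the filter. Outside the cluster the differences were of another size. Alkbh1 rose by 0.72 ± 0.17 on the log2 scale (edgeR adjusted p = 0.00398), Snw1 fell by 0.58 ± 0.13 (edgeR adjusted p = 0.00227), and Sptlc2, Slirp and Adck1 were not called (-0.22, 0.15 and -0.33).

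**Figure D5:**
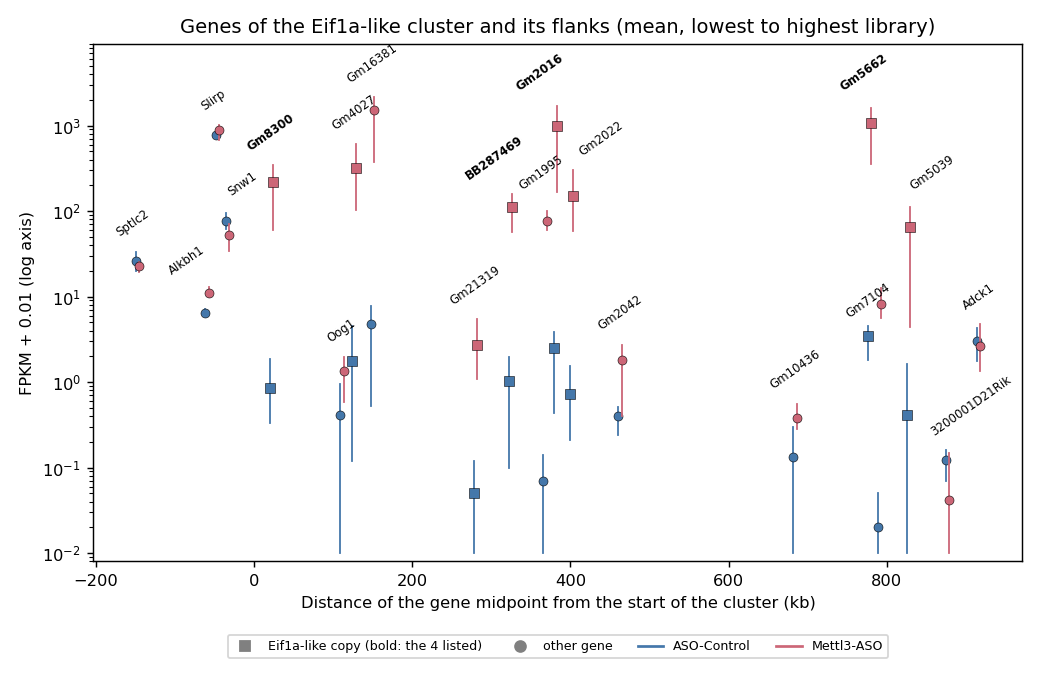
Mean FPKM plus 0.01 on a log axis, with lines from the lowest to the highest library, for genes of the Eif1a-like cluster and its flanks, against the distance of each gene's midpoint from the start of the cluster in kb. Squares are Eif1a-like copies, circles other genes; inside the cluster the group means of Gm16381 and Gm1995 lie 316-fold and 1275-fold apart, while Sptlc2, Slirp, Snw1, Alkbh1 and Adck1 beside it lie close together.

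Genes whose levels followed the sum from library to library were sought among 9514 others, after the mean of each group and batch was taken out of log2(FPKM + 1). The highest values of r over the 10 libraries were 0.99 for Prr11, 0.98 for Fam69a, 0.98 for Zfp937, 0.96 for Smad2 and 0.95 for Gmps, with no p given. They are the highest of 9514 and rest on fewer independent values than 10, because the means were taken out. Over the raw values the same genes gave 0.92, -0.35, 0.18, -0.41 and -0.87. Only Prr11 of these 5 was thus also high with the sum between the groups, at 3.54 to 6.92 FPKM in ASO-Control and 7.08 to 16.4 in Mettl3-ASO. All 5 share with the sum a low replicate 1 in both groups, except that Zfp937 was lower still in Mettl3-ASO replicate 3 and as low in ASO-Control replicate 3, and Gmps was at 39.8 FPKM in Mettl3-ASO replicate 3 against 40.2 in replicate 1.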

How the data were processed

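One table per library was used, and every value column in it was taken (0 columns left out). Reads were processed with STAR 2.7.10 and RSEM 1.3.3 on mm10, per the submitters' processing notes. The authors deposited for each gene an expected count, which need not be whole because RSEM divides reads that fit several genes by probability, a TPM and an FPKM, with the transcript length, per the file headers. Annotation release, read length and strandedness are not given in the sources used here. Expected counts were rounded and tested with edgeR 4.0.16 (quasi-likelihood, TMM scaling, batch as covariate, R 4.3.3) in all 10 libraries over the 9522 genes with a mean of at least 1 FPKM, with Benjamini-Hochberg adjustment and a threshold of 0.05. Each SE beside an edgeR log2 fold was computed from that fold and the F statistic of its test. limma 3.58.1 and DESeq2 1.42.0 served as alternatives. The edgeR test was checked on simulated counts with the same spread for every gene. There it found 91% of 2-fold and 100% of 4-fold group changes, and 6.83% of its calls were false.

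The 4 genes and all gene lists were chosen with earlier results of these data known. Named from the pathway lists are the 3 genes with the smallest p in each direction, and for likeness the 5 genes with the highest r. The 60-base stretch was read from GENCODE M21 transcripts, and the promoter from RefSeq. Same-numbered libraries of the groups deviated together (r = 0.19 to 0.315 over genes). Numbers 1 and 2 gave the same value by construction, since each group held 2 libraries with no batch label. Libraries of unlike number were not compared, so this does not show that the numbers mark pairs. A fit with the replicate as a block served as an alternative. In 8 pairs of replicates compared, counts differed by at least 19.6 chi-square per degree of freedom, so none was a repeat deposit. Totals of 9905830 to 32327283 counts per library leave the summed copies in the controls at 55 to 555 counts.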

Additional observations from a re-analysis of the deposited data

Results flagged for a closer look

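In groups of 5, a library was marked when its gap to the nearest other exceeded 0.71 of the group's range. Of 42 groups checked, 8 held such a library. For independent groups of normally distributed values chance gives about 1 in 20, or 2.1. These groups are not independent, since sums and shares reuse the same copies, so the 8 are not read as an excess.

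For the makeup of the sum, Gm2016 held 15.5% in ASO-Control replicate 1 and 22.7% in Mettl3-ASO replicate 1, both far below the other four libraries of the group. BB287469 held 17.7% in Mettl3-ASO replicate 1, far above the rest. Gm8300 held 10.7% in Mettl3-ASO replicate 5, above 8.53% as the lowest. For the other copies, Gm5039 was at 1.62 FPKM in ASO-Control replicate 5, where the median was 0.18.

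For the other initiation factor genes, Eif1ad was at 108 FPKM in ASO-Control replicate 3. Eif1 was low at 1835 FPKM in Mettl3-ASO replicate 1, and Eif1b was high at 105.5 FPKM in the same library. Mettl3-ASO replicate 1 accounts for 4 of the 8, and it is also the library with the lowest Eif1a-like sum (706 FPKM) and the only one with more than 0.3 FPKM of Dux. The cause was not tested.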

How the results depend on the processing

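The log2 ratio of the Eif1a-like sum stayed between 7.85 and 8.50 over 20 alternatives, one of which, all 8 copies with Gm5039, was added after seeing the data. Leaving out 1 library at a time gave 8.05 to 8.50. The interaction of group and batch ran from -0.84 to 1.98 when single libraries were left out and was never called. Gene counts moved mainly when the 4 libraries with no batch label were used alone: 596 genes called in all, 1 of the preinitiation list and 2 of the cap-binding list. With single libraries left out they were 4194 to 4800, 11 to 16 and 4 to 9, the 4 being without ASO-Control replicate 5. limma on log2(FPKM + 1) or log2(FPKM + 0.1) called 4 cap-binding genes. Fewer libraries are tested in the subsets. For the limma values the cause was not tested.

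Eif3j1 ran from -0.94 to 6.70 with single libraries left out. It reversed to -0.94 without Mettl3-ASO replicate 1 and to -0.62 in batch 2 alone. In the libraries with no batch label alone, Eif1ax (-0.49), Eif5b, Eif2d, Eif3e, Eif4e, Eif4ebp1, Eif4g2, Alkbh1 and Snw1 were not called, each in the same direction. Eif4g2 was also not called in batch 2 alone, with either limma fit, or without ASO-Control replicate 5 or Mettl3-ASO replicate 3. The log2 fold of Gm8300 went from 8.03 to 6.95 in the libraries with no batch label and to 6.70 with limma on log2(FPKM + 1).

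With the replicate block, the sum's ratio was 8.21, the interaction 0.49, and the calls 5246 genes, 14 preinitiation genes and 9 cap-binding genes. Among the named genes it changed the call of Eif3j1 only.

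Low counts of single copies in the controls, and the division of shared reads, limit what single copies can show.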
